A study of Mus musculus with 40 samples.

Results

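Aminoacyl-tRNA synthetases are the enzymes that attach each amino acid to its transfer RNA. Their RNA was followed in mouse thymocytes sorted at 2 stages, the early T-cell precursor (ETP) stage and the later DN3 stage, a double-negative stage without CD4 and CD8. The 35 synthetase genes were taken by symbol, 20 for enzymes of the cytosol and 15 for enzymes of the mitochondrion. All 35 were found among the 23284 genes of the table of pI-pC and antibody libraries and among the 23107 genes of each of the 2 tamoxifen tables, and all 35 passed the filter on low counts in every comparison. All mice were C57BL/6, and the 40 libraries form 12 groups, 6 conditions at 2 stages. DeltaMxCre mice (MxCreZmiz1f/f) and MxCre control mice, 3 per group, both received 40 mcg of pI-pC 5 times at intervals of 2 days, and cells were taken 8 weeks later. MxCre is driven by an interferon-responsive promoter that pI-pC switches on in many cell types, and floxed Zmiz1, a Notch1 cofactor gene, is deleted where Cre is active. DeltaTamCre mice (Rosa26CreERT2Zmiz1f/f) and TamCre control mice (Rosa26CreERT2), 4 per group, both received tamoxifen at 0.2 mg/g, and cells were taken 43 to 44 h later. AntiNRR mice received, at 10 mg/kg, a Notch1-blocking antibody raised to the receptor's negative regulatory region, and IgG mice the isotype control, and cells were taken 24 h later, with 3 libraries per group and stage. How many mice stood behind the antibody libraries is not in the labels, which tie no library to a mouse, so p-values measure the spread between these libraries only.

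A synthetase recognises its amino acid and the matching transfer RNA, and joins them at the cost of ATP, so that the ribosome can read codons as amino acids. Mammals keep separate nuclear genes for most mitochondrial enzymes, whose symbols end in a numeral, while Kars (lysine) and Gars (glycine) each encode both forms. Several cytosolic enzymes (Dars for aspartate, Eprs for glutamate and proline, Iars for isoleucine, Kars, Lars for leucine, Mars for methionine, Qars for glutamine and Rars for arginine) sit in a multi-synthetase complex held together by the scaffold proteins Aimp1, Aimp2 and Eef1e1. Thymocytes at these stages depend on Notch1 signals to become T cells, and Myc, a Notch1 target gene in them, is known to bind genes of the protein synthesis machinery.

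The 24 pI-pC and antibody libraries held 9456817 to 23962394 counts each, with 48127195 to 91659590 in the 8 tamoxifen DN3 libraries and 17418637 to 30975325 in the 8 tamoxifen ETP libraries. The synthetases together held 0.206% to 0.530% of a library's counts. The 3 tables came from 3 library kits, so levels in CPM (counts scaled to library size by TMM) are compared within a table. Zmiz1 itself was lower without overlap of libraries in all 4 deletion comparisons, from 112.9 to 129.1 CPM against 286 to 349.4 CPM in pI-pC DN3 cells and from 184.1 to 242.9 against 301 to 353.5 CPM in tamoxifen DN3 cells. The labels describe both sorts as CD44+CD25-, but the IgG DN3 libraries held a mean of 2.48 CPM of Cd44 and 3413 CPM of Il2ra, the gene of CD25, against 88.5 and 2158 CPM in IgG ETP libraries. Summed DN3 markers (Ptcra, Il2ra, Rag1, Cd3e and Notch3) were 10200 to 10500 CPM in IgG DN3 and 2860 to 4330 CPM in IgG ETP libraries. In such bulk samples, fewer cells of a type and less RNA per cell cannot be told apart.

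The stretches just upstream of 5 cytosolic synthetase genes are shown because these genes either carry the results below or hold a sequence element linked to their control. They are RefSeq promoters of build GRCm38.p6, printed 5′ to 3′ on the strand of the gene. Capitals mark the E-box CACGTG, which Myc is known to bind, and the C/EBP-ATF element TGATGNAAN, which Atf4 is known to bind and which here lies on the opposite strand. The Dars stretch is chr1:128417417-128417616 (minus strand), Iars is chr13:49681930-49682099 (plus), Farsb, a subunit gene of the phenylalanine enzyme, is chr1:78488898-78489097 (minus), Farsa, its other subunit gene, is chr8:84856786-84856985 (plus) and Gars is chr6:55037801-55038000 (plus).
Dars: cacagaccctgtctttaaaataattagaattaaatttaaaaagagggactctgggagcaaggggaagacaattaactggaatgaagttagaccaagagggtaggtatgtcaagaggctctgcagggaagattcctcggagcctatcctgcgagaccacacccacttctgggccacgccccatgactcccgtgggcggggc
Iars: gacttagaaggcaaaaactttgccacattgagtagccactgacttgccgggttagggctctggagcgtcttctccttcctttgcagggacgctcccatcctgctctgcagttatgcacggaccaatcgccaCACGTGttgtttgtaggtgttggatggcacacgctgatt
Farsb: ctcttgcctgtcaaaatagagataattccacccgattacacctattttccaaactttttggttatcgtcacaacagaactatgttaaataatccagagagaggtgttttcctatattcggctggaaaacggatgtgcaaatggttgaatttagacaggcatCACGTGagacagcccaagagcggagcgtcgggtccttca
Farsa: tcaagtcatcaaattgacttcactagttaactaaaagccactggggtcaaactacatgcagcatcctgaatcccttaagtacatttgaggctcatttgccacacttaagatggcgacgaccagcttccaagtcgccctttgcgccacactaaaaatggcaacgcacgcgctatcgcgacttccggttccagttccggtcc
Gars: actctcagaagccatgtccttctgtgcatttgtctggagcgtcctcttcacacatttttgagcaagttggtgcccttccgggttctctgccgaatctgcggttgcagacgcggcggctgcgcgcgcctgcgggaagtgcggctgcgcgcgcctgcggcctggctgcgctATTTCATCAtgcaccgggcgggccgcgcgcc
The E-box began 69 bases upstream of the RefSeq start of Iars and 39 bases upstream of that of Farsb, and the C/EBP-ATF element 31 bases upstream of that of Gars. The printed stretches of Dars and Farsa hold neither set of letters.

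Of the 35 synthetases, 25 had a promoter entry (the others were Cars, Hars, Lars, Mars, Nars, Rars, Vars, Wars, Hars2 and Pars2). Over windows from 250 bases before to 50 bases after the start, searched on both strands, the E-box was found in 5 of the 25, namely Aars, Ears2, Farsb, Iars and Tars, against 7.24% of 27025 promoters. It was in 4 of 12 cytosolic and 1 of 13 mitochondrial synthetase promoters. The C/EBP-ATF element was found in Aars, Gars, Iars, Tars and Yars, 5 of 12 cytosolic promoters (41.7%), and in 0 of 13 mitochondrial ones, against 4.04% of all promoters. The E-box is palindromic and does not overlap the C/EBP-ATF letters. These matches describe letters in a window and no binding was measured.

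Per kilobase of the longest coding transcript, the median of the cytosolic synthetases stood above that of the mitochondrial ones in every group. Single genes overlapped, the lowest cytosolic level in IgG DN3 cells being 11.5 and the highest mitochondrial one 22.6 CPM per kb. In IgG DN3 cells the class medians were 28.3 CPM per kb over the 20 cytosolic genes and 8.76 CPM per kb over the 15 mitochondrial genes. In IgG ETP cells they were 32.2 and 8.54 CPM per kb, in MxCre DN3 cells 34.8 and 11.6, and in MxCre ETP cells 34.2 and 8.72. In the other kits the medians were 64.1 and 15.5 CPM per kb in TamCre DN3 cells and 29.1 and 5.69 CPM per kb in TamCre ETP cells.

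The most abundant synthetase per length in IgG DN3 cells was Dars at 121.6 ± 3.47 CPM per kb (SD, n = 3). Eprs followed at 74.3 ± 4.92 CPM per kb and Kars at 73.55 ± 9.44 CPM per kb, a pair that did not differ beyond their spread. Vars, the valine enzyme that associates with elongation factor eEF1, stood at 60.77 ± 2.35 CPM per kb. Gars (49.08 ± 6.53 CPM per kb) and Qars (45.43 ± 0.772 CPM per kb) again lay within their spread of each other. Iars followed at 37.75 ± 3.62, Rars at 31.03 ± 3.45 and Farsb at 28.89 ± 3.20 CPM per kb. Over the 12 groups Kars kept to rank 1 to 3 of 35, Dars and Vars to rank 1 to 4 and Gars to rank 4 to 6, while Eprs ranged from rank 2 to rank 10. The lowest cytosolic levels were those of Cars (cysteine) at 11.48 and Aars (alanine) at 13.18 CPM per kb. The long annotated transcript of Aars (5750 bases) enters this value and its ratio to Aars2 below. Exosc6 on the same strand covers 23.1% of the exon bases of Aars.

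Among mitochondrial enzymes in IgG DN3 cells, Fars2 (phenylalanine) at 22.59 CPM per kb and Iars2 at 20.86 CPM per kb were highest, followed by Rars2 at 20.3 and Tars2 (threonine) at 16.58 CPM per kb. Neighbouring genes overlap 32.2% of the exon bases of Iars2. Ears2, which charges mitochondrial glutamine transfer RNA with glutamate for later conversion, was low at 4.62 CPM per kb. Mars2 was lowest of the 35 in all 12 groups, at 1.77 CPM per kb in IgG DN3 cells, where its long annotated transcript of 11294 bases enters the value.

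**Figure D1:**
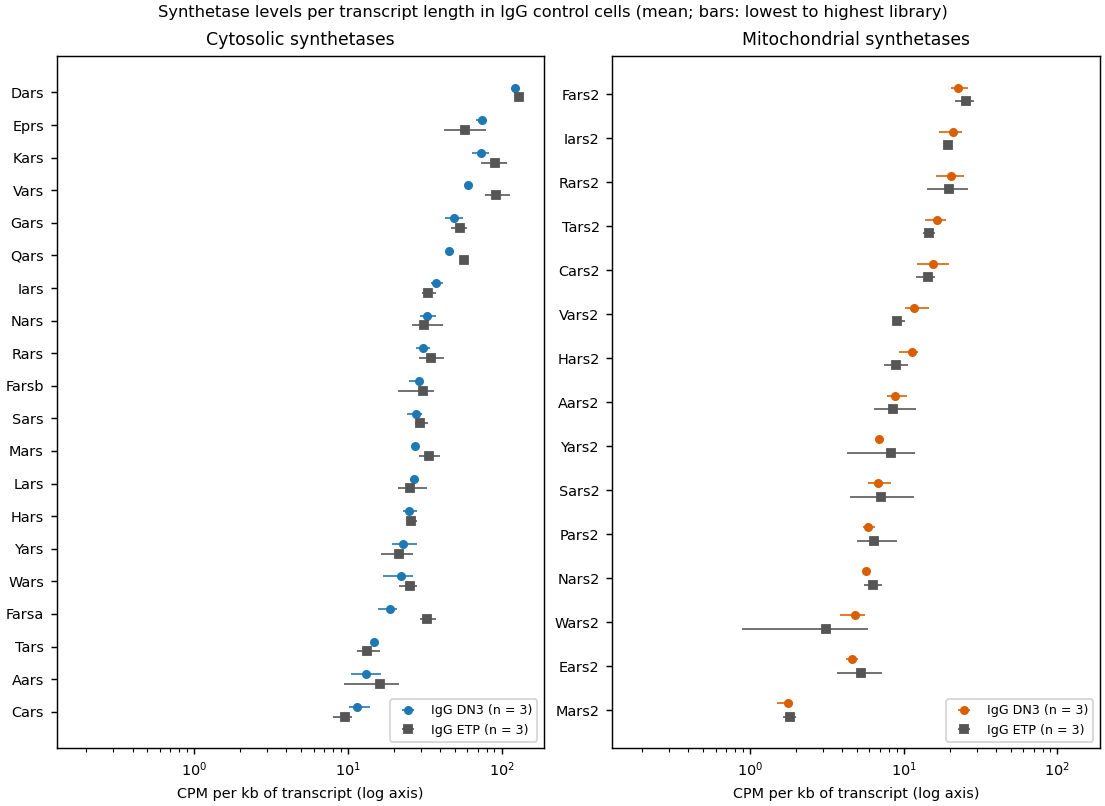
Level of each synthetase in CPM per kb of its longest coding transcript (log axis) in IgG DN3 and IgG ETP libraries, cytosolic and mitochondrial enzymes in separate panels; points are means of 3 libraries and lines run from the lowest to the highest library. Dars, Kars, Eprs and Vars lead the cytosolic panel and Mars2 is lowest of all.

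For 13 amino acids the cytosolic and the mitochondrial enzyme each have a gene of their own, counting Farsa for phenylalanine. The cytosolic gene was the higher per length in all 12 groups for 9 of these pairs. The ratio of Mars to Mars2 ran from 13.7 in AntiNRR DN3 to 34.8 in MxCre ETP cells, and the long Mars2 transcript (11294 bases) enters it. The ratio of Nars to Nars2 (asparagine) ran from 4.84 in AntiNRR DN3 to 17.2 in DeltaTamCre DN3 cells, groups of different library kits. The pairs that went the other way in some groups were Aars with Aars2 (cytosolic higher in 11 groups), Farsa with Fars2 (10 groups), Tars with Tars2 (5 groups) and Cars with Cars2 (3 groups). Per length, Cars2 was thus above Cars in most groups. The ratio of Cars to Cars2 ran from 0.511 in DeltaMxCre ETP to 1.81 in TamCre ETP cells, again groups of different kits. Length enters this order, with longest coding transcripts of 3222 bases for Cars and 1902 for Cars2. In mean CPM Cars was the higher in IgG DN3 cells (36.98 against 29.59 CPM), and the lower only in DeltaMxCre ETP cells (27.19 against 31.43 CPM).

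After Notch1 was blocked in DN3 cells, 4 synthetases were lower, all of them cytosolic. Dars, Iars, Farsb and Rars fell at a Benjamini-Hochberg adjusted p under 0.05 in edgeR's quasi-likelihood test, the threshold for every call here, and no synthetase rose (2.65% of all genes did). They are 4 of 20 cytosolic and 0 of 15 mitochondrial genes, while 2.96% of the 12658 genes tested were called lower. DESeq2 called the same 4 genes, and 3.61% of all genes lower. In Dars, the largest by level, the AntiNRR DN3 libraries held 195, 194 and 212 CPM and the IgG DN3 libraries 264, 272 and 257 CPM. The groups did not overlap, with 200.4 ± 10.04 against 264.5 ± 7.543 CPM (SD, n = 3 each) and a log2 fold change of -0.41 (SE 0.0991, edgeR adjusted p = 0.0126).

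Iars had 106, 111 and 134 CPM after the antibody and 162, 185 and 154 CPM after IgG. All 3 treated libraries lay below all 3 controls, and the log2 fold change was -0.53 (SE 0.121, edgeR adjusted p = 0.00952). Rars had 47.2, 37.2 and 47.3 CPM against 72.8, 65.2 and 58.3 CPM, again without overlap. Its log2 fold change was -0.59 (SE 0.173, edgeR adjusted p = 0.0467). Dars, Iars and Rars belong to the multi-synthetase complex, whereas Farsb makes the phenylalanine enzyme with Farsa outside it.

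Farsb had 32.8, 38.7 and 42 CPM against 62.7, 51.3 and 62.4 CPM, a log2 fold change of -0.65 (SE 0.181, edgeR adjusted p = 0.0335). Its partner subunit gene Farsa had 38.9, 31.5 and 33.4 CPM against 38.4, 36.4 and 28.7 CPM, overlapping groups with a log2 fold change of -0.00 (SE 0.207, edgeR adjusted p = 0.995). The difference between the subunit genes was not tested. Sgpp2 on the opposite strand covers 11.3% of the exon bases of Farsb, and the sources used here do not say whether counting used strand. Dars lies at chr1:128363707-128417368 (minus strand, GRCm38), Iars at chr13:49682100-49734267 (plus), Farsb at chr1:78417975-78488897 (minus) and Rars at chr11:35808381-35834506 (minus).

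These calls rest on few libraries. Without AntiNRR DN3 replicate 2, or without IgG DN3 replicate 2, no synthetase was called, and Dars then had edgeR adjusted p = 0.0585 and 0.075. The count was 2 without AntiNRR DN3 replicate 1, IgG DN3 replicate 1 or IgG DN3 replicate 3, and in the first of these the calls were Dars and Kars (-0.49, edgeR adjusted p = 0.0429). Rars lost its call without any one library (edgeR adjusted p from 0.0519 to 0.219). Farsb kept its call only without AntiNRR DN3 replicate 3 and lost it in the other 5 (edgeR adjusted p from 0.0582 to 0.16), and Iars lost its call in 3 (0.0506, 0.0545 and 0.0926). The log2 fold changes of all 4 genes stayed below 0 throughout. Rars also lost its call with DESeq2 size factors in edgeR (adjusted p = 0.0521).

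Beyond the 4 calls, 19 of 20 cytosolic genes had log2 fold changes below 0, with a median of -0.33, as had 12 of 15 mitochondrial genes with a median of -0.18, while 51.3% of all genes tested were below 0 and their median was -0.01. With DESeq2 scaling the cytosolic count was 17 of 20. An unadjusted edgeR p under 0.05 was reached by 12 cytosolic and 0 mitochondrial genes, against 16.9% of all genes. Treated libraries lay below all controls in 10 cytosolic genes and in Hars2 alone among mitochondrial ones, against 11% of all genes. The 8 genes of the multi-synthetase complex had a median log2 fold change of -0.37 with 3 called, and the 12 other cytosolic genes a median of -0.27 with 1 called.

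Other cytosolic genes had differences that did not pass the test. Kars had 146, 107 and 124 CPM against 182, 160 and 141 CPM, a log2 fold change of -0.37 (edgeR adjusted p = 0.108). Gars stood at 96.32 against 116.8 CPM (-0.29, edgeR adjusted p = 0.277), and Wars, the tryptophan enzyme that interferon induces, at 55.79 against 63.22 CPM (-0.19, edgeR adjusted p = 0.695). Aars had a log2 fold change of -0.45 (edgeR adjusted p = 0.152), Mars of -0.36 (0.171) and Lars of -0.33 (0.162). Qars went the other way with 136, 151 and 136 CPM against 128, 125 and 129 CPM, all treated libraries above all controls (so in 11.4% of all genes), at a log2 fold change of 0.14 (edgeR adjusted p = 0.629). Thus within the complex Iars and Rars fell while Qars stood slightly higher, a contrast between genes that was not tested.

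No mitochondrial synthetase was called in this comparison. By lowest p they were Hars2 (histidine), with 30.5, 30.3 and 27.1 against 31.2, 40.9 and 41.3 CPM at a log2 fold change of -0.38 (edgeR adjusted p = 0.381), and Yars2 (tyrosine), at 15.39 against 19.47 CPM and -0.35 (0.617). Part of the exon bases of Hars2 (5.85%) and of Hars (9.8%) overlap each other on opposite strands. Wars2 (0.28), Aars2 (0.25) and Pars2 (0.11) had log2 fold changes above 0. The mitochondrial genes were also the lower in counts, and the absence of calls among them does not show that they did not differ.

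**Figure D2:**
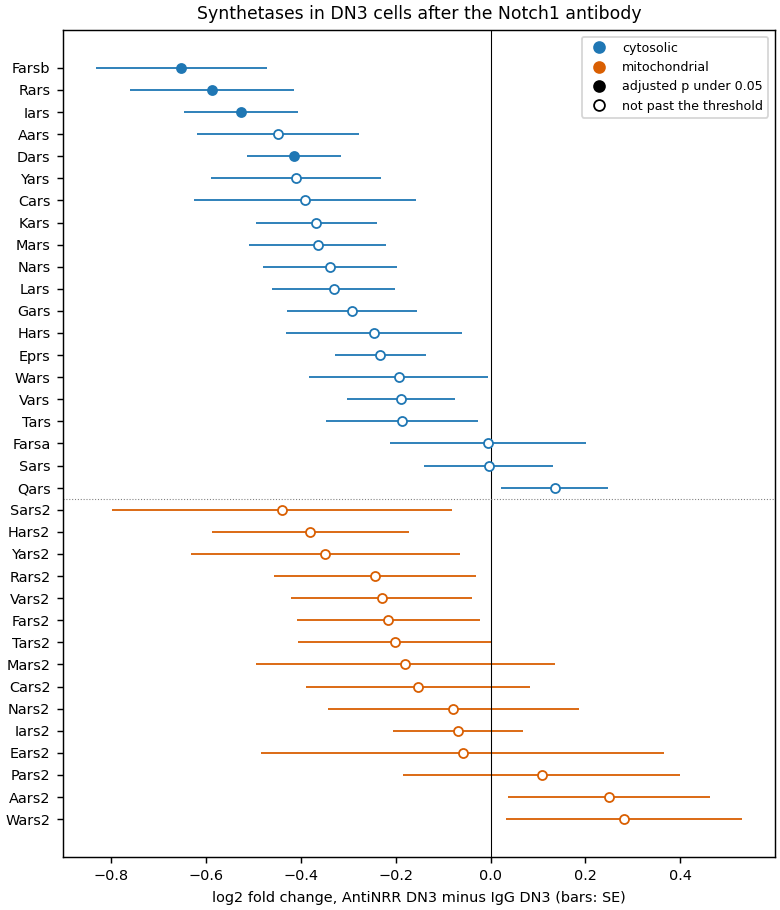
Log2 fold change with its SE for all 35 synthetases, AntiNRR DN3 against IgG DN3 (3 libraries each), grouped as cytosolic and mitochondrial; filled symbols passed the test. Dars, Iars, Farsb and Rars are the filled points, and Qars is the one cytosolic point above 0.

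Some genes that act beside the synthetases were also lower after the antibody in DN3 cells. Eef1e1, one of the 3 scaffold genes, fell from 23.74 ± 2.13 to 10.48 ± 4.28 CPM (log2 fold change -1.19, SE 0.321, edgeR adjusted p = 0.0281), while Aimp2 (-0.73, 0.194) and Aimp1 (-0.32, 0.463) did not pass. Of 5 genes for translation elongation factors or their subunits, which act as the ribosome lengthens a protein, 3 fell, against 2.96% of all genes: Eef1a1 from 5474 to 4552 CPM (-0.28, edgeR adjusted p = 0.0467), Eef1b2 (-0.40, 0.0243) and Eef1g (-0.33, 0.0245). Xpot, the nuclear exporter of transfer RNA, fell from 159.1 to 112 CPM (-0.52, edgeR adjusted p = 0.0146), the one call of 11 genes for maturation and export, against the same 2.96%. Of 12 tested mitochondrial translation partners 0 were called by edgeR or DESeq2 and 1 had an unadjusted edgeR p under 0.05, Mtfmt (-0.67, adjusted p = 0.194), which formylates the initiator; Mtif3 followed (-0.35, 0.319).

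Known Atf4 targets outside the synthetases were lower in 4 of the 16 tested genes of that list, Atf4 included, against 2.96% of all genes, namely Psat1 and Shmt2 of serine and glycine synthesis, the amino acid transporter gene Slc7a5 and Aldh18a1 of proline synthesis. Slc7a5 fell from 98.92 to 58.19 CPM (log2 fold change -0.78, edgeR adjusted p = 0.0024) and Shmt2 from 107.2 to 74.72 CPM (-0.54, 0.0466). Atf4 itself stood at 44.97 against 62.59 CPM (-0.49, edgeR adjusted p = 0.152). Other genes of the list had log2 fold changes above 0 with none called: Sesn2, a stress-response gene, had 5.28, 4.52 and 8.3 CPM against 3.56, 2.5 and 3.81 CPM, all treated libraries being higher (0.86, edgeR adjusted p = 0.499), and Ddit4 (0.59, 0.323), Ddit3 (0.68, 0.612), Slc7a11 (0.56, 0.567), Atf5 (0.23), Pycr1 (0.20) and Cebpb (0.18) overlapped. The list thus did not move one way. Myc fell, with 67.8, 68 and 62.8 CPM against 170, 108 and 112 CPM and a log2 fold change of -0.99 (SE 0.156, edgeR adjusted p = 0.000253). Whether the synthetases follow either factor was not tested.

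Other features of these libraries moved with the antibody. Rn45s, the ribosomal RNA precursor, held 4.77% to 6.80% of counts after the antibody and 2.75% to 3.74% after IgG, and it was called higher (log2 fold change 0.90, edgeR adjusted p = 0.0124), while the shares of Malat1, a nuclear RNA, overlapped. The summed DN3 markers fell to 5400 to 6220 CPM from 10200 to 10500 CPM, with 4 of 5 called lower, among them Il2ra (-2.43) and Ptcra (-1.59). The summed ETP markers were 155 to 214 against 93.6 to 111 CPM with Kit called higher (0.84) and Cd34 at 0 after the antibody. Natural killer and innate lymphoid markers summed to 210 to 237 against 113 to 133 CPM with Klrb1c and Ncr1 at 0, nearly all of it Gzma, which codes for a granule protease (232, 208 and 212 against 130, 119 and 106 CPM), myeloid markers overlapped (15.1 to 24.3 against 12.8 to 25.2 CPM, Mpo and Fcgr3 at 0), and all 5 B-cell markers were at 0 after the antibody. Their part in the synthetase values was not tested.

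In ETP cells the antibody gave no call among the 35 synthetases in edgeR, as among all 12568 genes (0%), and none in DESeq2, where 0.223% of all genes were called. Unadjusted edgeR p was under 0.05 in 2 synthetases, Iars and Vars, against 5.47% of all genes. Iars had 91, 110 and 82 CPM after the antibody and 140, 135 and 167 CPM after IgG, without overlap, a log2 fold change of -0.64 (SE 0.18, edgeR adjusted p = 0.605). Vars had 267, 340 and 232 against 354, 322 and 473 CPM, overlapping groups at -0.45 (0.86). The Iars difference was thus about as large as in DN3 cells, with a larger SE.

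Of the cytosolic genes in this ETP comparison, 18 of 20 were below 0 with a median log2 fold change of -0.31, against a median of 0.01 over all genes. Of the mitochondrial genes 11 of 15 were below 0, with a median of -0.18. Libraries did not overlap and were lower in 3 cytosolic and 0 mitochondrial genes, against 5.96% of all genes. Aars (-0.51, edgeR adjusted p = 0.95), Eprs (-0.43, 0.968) and Nars2 (-0.53, 0.968) were next by p, and Kars (-0.36), Gars (-0.19) and Wars (-0.16) had adjusted p of 0.95 or more. Wars2 lay farthest above 0, at 20.7, 18.5 and 31.5 against 11.5, 25.8 and 3.94 CPM (0.78, edgeR adjusted p = 0.968), with overlapping groups. Myc stood at 73.66 against 147.2 CPM there (edgeR adjusted p = 0.675), and Atf4 had a log2 fold change of 0.24 (0.993).

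Stage markers differed between these ETP libraries. The 5 DN3 markers summed to 640 to 1920 CPM after the antibody and 2860 to 4330 CPM after IgG, without overlap. Il2ra had 423, 270 and 1030 against 2570, 2050 and 1850 CPM, and Ptcra 2.21, 1.12 and 15.2 against 32, 41.6 and 25.5 CPM, both apart. All 5 had an unadjusted edgeR p under 0.05 and 0 were called by edgeR, while DESeq2 called 1. The 4 ETP markers overlapped, at 407 to 1120 against 277 to 798 CPM. Their part in the synthetase values was not tested.

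**Figure D3:**
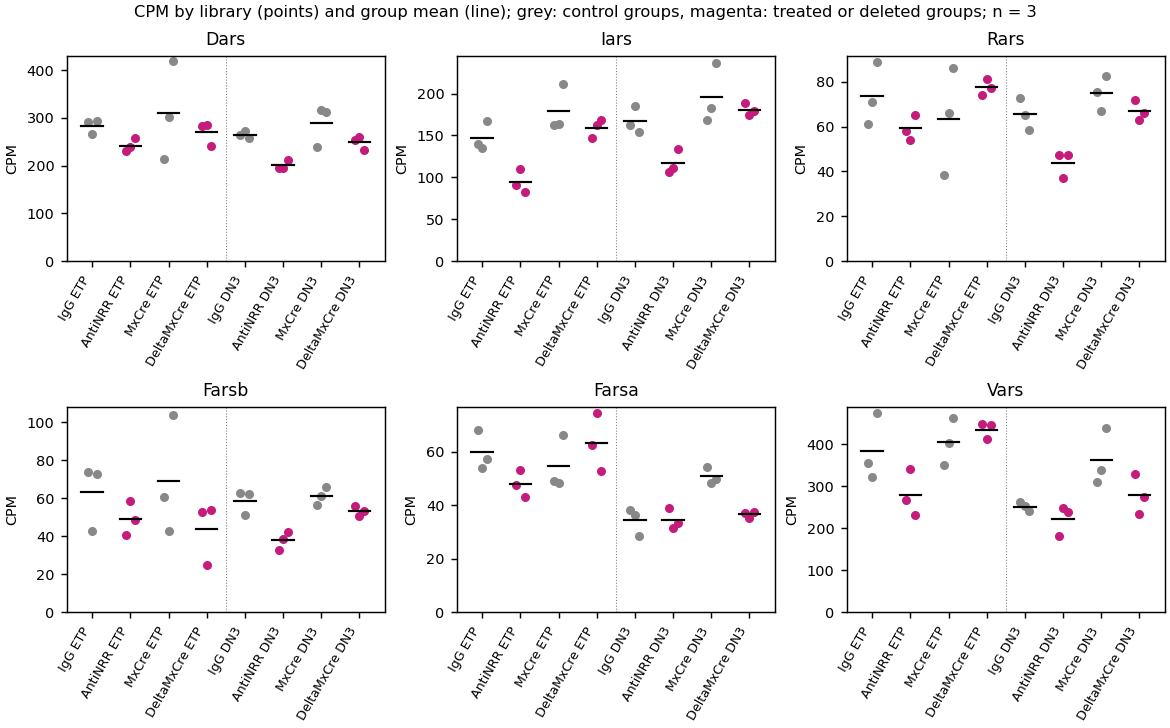
CPM in each library for the 6 synthetases called in a comparison (Dars, Iars, Rars, Farsb, Farsa and Vars) across the 8 pI-pC and antibody groups; each point is 1 library. In DN3 cells the AntiNRR points of Dars, Iars, Rars and Farsb lie below the IgG points, and in IgG libraries Farsa is lower in DN3 than in ETP cells.

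Deletion of Zmiz1 by pI-pC gave no synthetase call in DN3 cells. edgeR called 0 of 35 and DESeq2 0 of 35, against 1.44% of 12675 genes by edgeR and 4.16% by DESeq2. Unadjusted edgeR p was under 0.05 in 11 synthetases, all lower, against 16.1% of all genes. They were 8 cytosolic genes (Farsa, Sars, Eprs, Mars, Qars, Kars, Vars and Gars) and 3 mitochondrial ones (Vars2, Tars2 and Aars2). Log2 fold changes were below 0 in 18 of 20 cytosolic genes (median -0.22) and 11 of 15 mitochondrial genes (median -0.14), against a median of -0.01 over all genes.

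Farsa had the lowest p, with 37, 35.2 and 37.6 CPM in DeltaMxCre and 54.5, 48.2 and 49.9 CPM in MxCre DN3 libraries. The groups did not overlap, and the log2 fold change was -0.47 (SE 0.167, edgeR adjusted p = 0.174). Sars, the serine enzyme, had 97, 79.4 and 100 against 129, 113 and 124 CPM (-0.40, edgeR adjusted p = 0.175), and Eprs 371, 334 and 401 against 447, 444 and 521 CPM (-0.35, 0.189). Both were lower in every deleted library than in any control. Mars (-0.39, edgeR adjusted p = 0.224), Kars (-0.32, 0.251), Gars (-0.35, 0.285) and Wars (-0.22, 0.57) followed. Of the mitochondrial genes, Vars2 had 44.3, 44.8 and 37.8 against 58, 52.4 and 60.8 CPM (-0.43, edgeR adjusted p = 0.213), and Tars2 49.9, 52 and 51.4 against 63.5, 64.6 and 65.3 CPM (-0.33, 0.28). Both were again without overlap, as 8 cytosolic and 2 mitochondrial genes were in all, against 10.5% of all genes.

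The genes beside the synthetases had no edgeR call in this comparison among the scaffold (0 of 3), elongation factors (0 of 5), maturation and export (0 of 11) or Atf4 targets (0 of 16), with 0, 5, 1 and 4 at an unadjusted p under 0.05. Over all genes, edgeR called 1.44% and 16.1% had an unadjusted edgeR p under 0.05. DESeq2 called 1 elongation factor and 1 Atf4 target, against 4.16% of all genes. The elongation factors were led by Eef1a1 at 4628 against 6248 CPM (-0.43, edgeR adjusted p = 0.146). Elac2, which trims transfer RNA ends, stood at 53.88 against 78.24 CPM (-0.54, edgeR adjusted p = 0.146). Shmt2 had a log2 fold change of -0.59 (edgeR adjusted p = 0.0773), and Myc one of -0.84 (0.211). The share of Malat1 was 0.961% to 1.33% in deleted and 0.324% to 0.711% in control libraries, and that of Rn45s 4.71% to 5.07% against 6.76% to 8.82%, and their part in the synthetase values was not tested.

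In ETP cells after pI-pC the synthetases were not called by edgeR (0 of 35, against 0.0416% of 12010 genes) or by DESeq2 (0.719% of genes), and 0 had an unadjusted edgeR p under 0.05, against 5.56% of all genes. Vars2 alone was lower without overlap of libraries, against 6.46% of genes. Tars2 had 35.3, 39.9 and 40.8 against 39.5, 62.2 and 75.4 CPM, a log2 fold change of -0.60 (edgeR adjusted p = 0.911). Sars (-0.46, edgeR adjusted p = 0.931), Nars (-0.46, 0.951), Farsb (-0.65, 0.96), Cars (-0.58, 0.985) and Hars2 (-0.45, 0.996) were next. Kars (-0.03), Gars (-0.04) and Wars (-0.02) were near 0, and all 3 turned above 0 without MxCre ETP replicate 3, the library that was highest in Farsb at 104 CPM against 60.6 and 42.7 CPM. Below 0 were 14 of 20 cytosolic genes (median -0.07) and 10 of 15 mitochondrial genes (median -0.10). The cytosolic median was 0.09 without MxCre ETP replicate 3, and the mitochondrial median 0.03 without DeltaMxCre ETP replicate 3. Stage markers moved with this deletion. The 5 DN3 markers summed to 6080 to 6890 CPM in deleted and 2480 to 3260 CPM in control libraries, with Ptcra (3.56) and Il2ra (1.27) called higher, and the 4 ETP markers to 303 to 415 against 604 to 853 CPM. Their part in the synthetase values was not tested.

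Acute deletion by tamoxifen in DN3 cells gave small differences, nearly all of them below 0. All 20 cytosolic genes and 13 of 15 mitochondrial genes were below 0, against 47.8% of all genes, with medians of -0.18 in both classes and 0.01 over all genes. By edgeR 0 of 35 were called, against 0.0827% of 13298 genes. Unadjusted edgeR p was under 0.05 in 12 synthetases, all lower, 6 of each class, against 15.6% of all genes. DESeq2 called 1 synthetase, Nars2, against 1.86% of genes called lower by it.

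Nars2 had 14.6, 15, 15.1 and 14.8 CPM in DeltaTamCre and 19, 18.4, 18.9 and 18.1 CPM in TamCre DN3 libraries. The groups were tight and apart, at 14.87 ± 0.198 against 18.61 ± 0.424 CPM (SD, n = 4 each), with a log2 fold change of -0.32 (SE 0.0832, edgeR adjusted p = 0.132, DESeq2 adjusted p = 0.0067). Tars2 had 96.2, 93.2, 90.3 and 99.8 against 109, 107, 102 and 110 CPM (-0.18, edgeR adjusted p = 0.224), also without overlap. Among cytosolic genes Cars alone did not overlap, with 62.9, 61.4, 61.7 and 63.5 against 69.4, 65, 66.5 and 74.7 CPM (-0.14, edgeR adjusted p = 0.316). Non-overlap downward was thus seen in 1 cytosolic and 5 mitochondrial genes, against 5.81% of all genes. Mars (-0.25, edgeR adjusted p = 0.268), Rars (-0.19, 0.27), Yars (-0.19, 0.32), Kars (-0.27, 0.297), Gars (-0.26, 0.297) and Wars (-0.21, 0.399) had overlapping libraries, with TamCre DN3 replicate 1 highest in Kars (458 CPM, the others 309 to 392 CPM).

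The 3 scaffold genes had log2 fold changes of -0.25 to -0.24 with 0 called by edgeR, 3 at an unadjusted p under 0.05, edgeR adjusted p of 0.15 to 0.164, and DESeq2 called 2 of them. All 5 elongation factors were below 0 with 0 called by edgeR, 4 at an unadjusted p under 0.05 and 2 by DESeq2. Over all genes, 15.6% had an unadjusted edgeR p under 0.05 and DESeq2 called 1.86% lower. Elac2 (-0.34, edgeR adjusted p = 0.166) and Xpot (-0.24, 0.224) were lowest in p of the maturation and export genes. Myc stood at 463 against 625.6 CPM, a log2 fold change of -0.43 (edgeR adjusted p = 0.128). Cd8a, a gene of later thymocytes, varied within both groups, at 45, 9.08, 16.4 and 25.5 CPM in deleted and 7.05, 26.6, 8.44 and 8.02 CPM in control libraries. In each group the library with the most Cd8a had the lowest cytosolic sum. These sums were 3345 CPM in DeltaTamCre DN3 replicate 1 and 3555 CPM in TamCre DN3 replicate 2. The part of this in the synthetase values was not tested.

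In ETP cells after tamoxifen the class medians lay on opposite sides of 0, a difference that was not tested. Below 0 were 17 of 20 cytosolic genes (16 by DESeq2 scaling; median -0.14) but 5 of 15 mitochondrial genes (median 0.10), while 45.5% of all genes were below 0. The mitochondrial median was -0.01 without DeltaTamCre ETP replicate 4. Neither tool called a synthetase, edgeR calling 0% of 12924 genes and DESeq2 0.0155%, and unadjusted edgeR p was under 0.05 in Eprs and Cars2 only, against 4.95% of all genes. Cars2 had 20.7, 18, 12.2 and 17.3 CPM in deleted and 11.2, 9.55, 10.5 and 12 CPM in control libraries, every deleted library being above every control. Its log2 fold change was 0.66 (SE 0.226, edgeR adjusted p = 0.907). Eprs had 236, 297, 305 and 317 against 360, 342, 383 and 362 CPM, all below, at -0.33 (edgeR adjusted p = 0.907). Gars was the other gene lower without overlap, with 94.8, 112, 117 and 104 against 123, 125, 125 and 123 CPM (-0.21, edgeR adjusted p = 0.907). Non-overlap was seen downward in 2.19% and upward in 1.8% of all genes.

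Hars (-0.22), Rars (-0.24), Iars (-0.22) and Wars2 (0.43) shared the edgeR adjusted p of 0.907, with Kars at -0.13 (0.922) and Wars at -0.11 (0.923). The share of Rn45s was 16.8% to 31.5% of counts in deleted and 20.5% to 27.3% in control libraries. That of Malat1 was 0.461% to 1.27% against 0.336% to 0.652%, and its part in the synthetase values was not tested.

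DeltaTamCre ETP replicate 1 stood apart from the other deleted ETP libraries. It had 432 CPM of Il2rb against 11.6 to 21.2 CPM in the other 3, and 103 CPM of Klrb1c, 109 CPM of S1pr1 and 77.9 CPM of Ccr7. The summed natural killer and innate lymphoid markers ran from 32.9 to 591 CPM in deleted and 64.6 to 274 CPM in control libraries. The same library had the lowest cytosolic sum, 1782 CPM, and the lowest Eprs and Gars of its group. Without it the cytosolic median was -0.08 and the mitochondrial median 0.07. Genes of later thymocytes also varied within both groups, with Rag1 at 97.2, 110, 1070 and 2630 CPM in deleted and 1010, 71.9, 1280 and 827 CPM in control libraries, and Cd8a at 18.3, 16.8, 131 and 341 against 135, 10.2, 178 and 111 CPM. The part of these differences in the synthetase values was not tested.

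**Figure D4:**
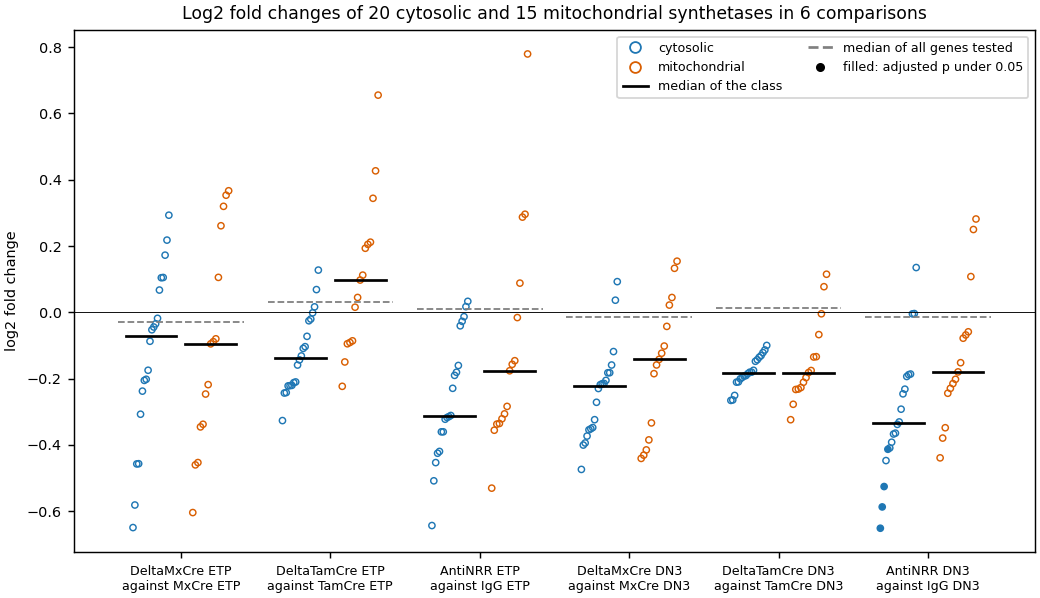
Log2 fold changes of the 20 cytosolic and 15 mitochondrial synthetases in the 6 treated-control comparisons; each point is 1 gene, the short line is the class median and the other line the median of all genes tested. Cytosolic medians lie below the all-genes median in all 6 comparisons, and the mitochondrial median of the tamoxifen ETP comparison lies above it; the cytosolic pI-pC ETP median is above 0 without MxCre ETP replicate 3, and the tamoxifen ETP mitochondrial one is -0.01 without DeltaTamCre ETP replicate 4.

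Over the 6 comparisons, which share no libraries, 10 of 20 cytosolic genes had a log2 fold change below 0 in every one (Dars, Eprs, Farsb, Gars, Iars, Kars, Lars, Sars, Wars and Yars), against 0 of 15 mitochondrial genes and 6.92% of the genes tested in all 6. With DESeq2 scaling the count was 8, since Sars in AntiNRR DN3 and Yars in tamoxifen ETP cells then lay just above 0. In the 3 DN3 comparisons 17 cytosolic and 9 mitochondrial genes were below 0 throughout (15 and 9 with DESeq2 scaling), against 21.6% of genes. In the 3 ETP comparisons 12 cytosolic and 2 mitochondrial genes were (11 and 2 with DESeq2 scaling), against 14.3%. Signs of this kind do not weigh the size or error of a difference, and Kars, Gars and Wars rest on values near 0 in pI-pC ETP cells, Sars in AntiNRR DN3 and Yars in tamoxifen ETP cells.

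Eprs ran from -0.43 to -0.20 over the 6 comparisons. Dars ran from -0.41 to -0.10, Farsb from -0.65 to -0.18, Iars from -0.64 to -0.12, Lars from -0.33 to -0.03, Sars from -0.46 to -0.00, Yars from -0.41 to -0.00, Wars from -0.22 to -0.02, Gars from -0.35 to -0.04 and Kars from -0.37 to -0.03. The sizes thus varied between comparisons, and several came close to 0. The cytosolic genes with the least lean were Tars, from -0.21 to 0.10 and below 0 in 3 comparisons, Hars (-0.27 to 0.07) and Aars (-0.51 to 0.17), both below 0 in 4. Cars (-0.58 to 0.04), Farsa (-0.47 to 0.22), Mars (-0.39 to 0.13), Nars (-0.46 to 0.07), Qars (-0.35 to 0.14), Rars (-0.59 to 0.29) and Vars (-0.45 to 0.11) were below 0 in 5.

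Among mitochondrial genes the signs were mixed. Wars2 was above 0 in 5 of 6 comparisons, from -0.22 to 0.78, and Pars2 (proline) in 4, from -0.25 to 0.30. Fars2 (-0.31 to 0.21) was below 0 in 3 comparisons, and Cars2 (-0.42 to 0.66), Ears2 (-0.39 to 0.35), Hars2 (-0.45 to 0.29) and Mars2 (-0.34 to 0.37) in 4. The others were below 0 in 5: Aars2 (-0.44 to 0.25), Iars2 (-0.21 to 0.26), Nars2 (-0.53 to 0.13), Rars2 (-0.24 to 0.09), Sars2 (-0.44 to 0.11), Tars2 (-0.60 to 0.10), Vars2 (-0.43 to 0.02) and Yars2 (-0.46 to 0.04).

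Summed over the class, cytosolic synthetases held 1832 to 2033 CPM in AntiNRR DN3 and 2251 to 2422 CPM in IgG DN3 libraries. The mitochondrial sums were 482.5 to 486.7 against 508.6 to 539.8 CPM, so neither class overlapped. The ratio of the cytosolic to the mitochondrial sum was 3.80 to 4.18 after the antibody and 4.36 to 4.62 after IgG, also apart. In pI-pC DN3 cells the cytosolic sums were 2171 to 2568 against 2710 to 3261 CPM and the mitochondrial sums 470.7 to 512.7 against 553.5 to 563.5 CPM, both without overlap. In tamoxifen DN3 cells only the mitochondrial sums were apart (675.4 to 735.4 against 753.8 to 822.1 CPM), the cytosolic ones running from 3345 to 4057 against 3555 to 4765 CPM. The ratio of the sums overlapped in pI-pC DN3 cells (4.23 to 5.22 against 4.81 to 5.89), in tamoxifen DN3 cells (4.82 to 6.01 against 4.72 to 5.796) and in the 3 ETP comparisons.

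In ETP cells the cytosolic sums overlapped after the antibody (1895 to 2290 against 2185 to 2969 CPM), after pI-pC (2602 to 2708 against 2454 to 3479 CPM) and after tamoxifen (1782 to 2441 against 2326 to 2449 CPM). A sum is led by its most abundant genes, here Dars, Eprs, Vars and Kars.

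**Figure D5:**
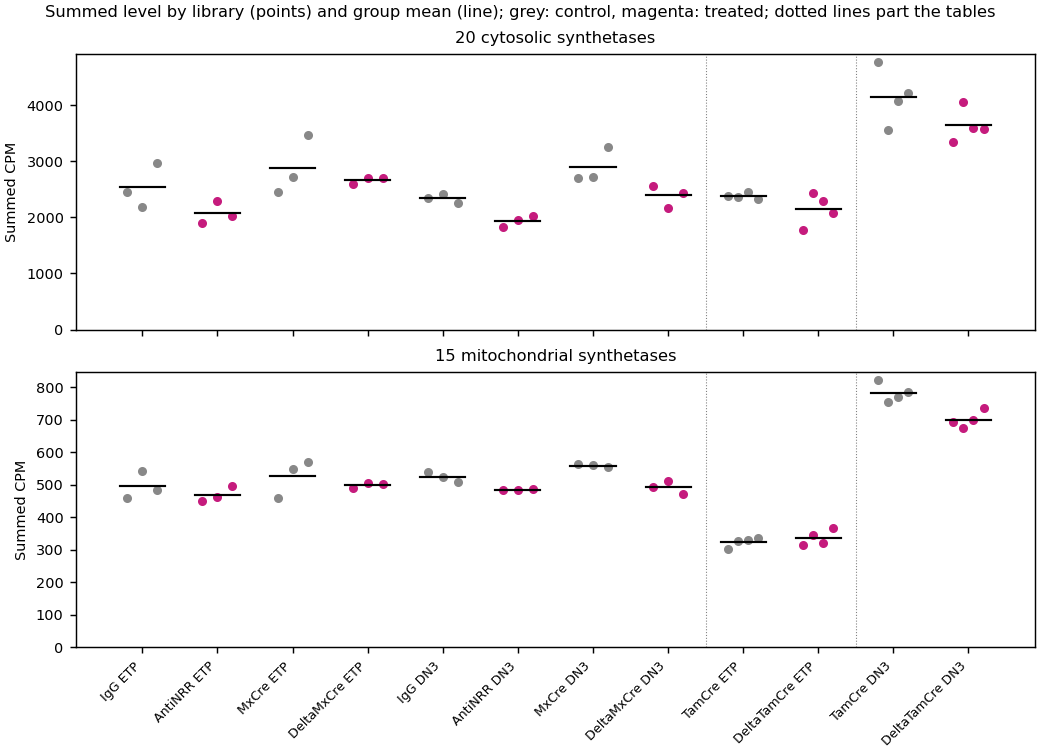
Summed CPM of the 20 cytosolic and of the 15 mitochondrial synthetases in every library of the 12 groups; each point is 1 library, and levels are comparable only within a library kit. In DN3 cells of the antibody and pI-pC sets the treated or deleted libraries lie below the controls in both classes, while the ETP groups overlap in the cytosolic panel.

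Between the stages, IgG DN3 cells had less Farsa and Vars RNA than IgG ETP cells. These were the 2 calls of edgeR and of DESeq2 among the 35 synthetases, both lower in DN3, and none was higher. Over all genes edgeR called 7.6% of 12720 lower and 7.12% higher, and DESeq2 called 9.5% lower. Calls were thus no more frequent among synthetases than among all genes. Unadjusted edgeR p was under 0.05 in 3 synthetases, against 27.6% of all genes. Farsa had 38.4, 36.4 and 28.7 CPM in DN3 and 68.4, 53.9 and 57.2 CPM in ETP libraries, without overlap, a log2 fold change of -0.80 (SE 0.193, edgeR adjusted p = 0.0106). Vars had 261, 252 and 241 against 354, 322 and 473 CPM, also apart, at -0.61 (SE 0.141, edgeR adjusted p = 0.00788). Without IgG ETP replicate 3 the count was 3, with Eprs higher in DN3 (0.64, edgeR adjusted p = 0.00138), and likewise 3 without IgG ETP replicate 2, with Wars2 higher (1.46, edgeR adjusted p = 0.0326). Both genes lost their call without IgG DN3 replicate 3, at edgeR adjusted p = 0.0798 for Farsa and 0.0617 for Vars. Farsa lies at chr8:84856989-84869257 (plus strand, GRCm38) and Vars at chr17:35000987-35016322 (plus).

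The other synthetases did not pass in this stage comparison. Qars had 128, 125 and 129 against 164, 154 and 158 CPM (-0.32, edgeR adjusted p = 0.0896), and Mars (-0.30, 0.22), Kars (-0.30, 0.219), Gars (-0.14, 0.609) and Wars (-0.18, 0.602) were also below 0. Vars2 had 64.9, 45.5 and 45 against 38.4, 44.9 and 37.8 CPM (0.36, edgeR adjusted p = 0.267) and Hars2 a log2 fold change of 0.35 (0.346). DN3 libraries lay below all ETP libraries in 4 cytosolic genes, against 16.6% of all genes, and above them in Vars2 alone, against 16.8%. The valine enzymes of the cytosol and mitochondrion thus stood on opposite sides, with the mitochondrial one not passing. Class medians were -0.10 over 20 cytosolic and 0.04 over 15 mitochondrial genes, against -0.01 over all genes. Of the elongation factors 4 of 5 were lower in DN3, Eef1a1 at 5474 against 8222 CPM (-0.59, edgeR adjusted p = 0.00491), and Mtfmt was higher (1.02, 0.0431). Rn45s (-1.94) and Malat1 (0.88) were called too, and their part in these values was not tested.

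In MxCre control mice the same stage comparison called no synthetase in edgeR (2.99% of 12399 genes) or DESeq2 (8.25% of 12314 genes), with 2 at an unadjusted edgeR p under 0.05 (16.7% of all genes). Aars2 had 45.6, 35.5 and 40.3 CPM in DN3 and 34, 12.1 and 14.7 CPM in ETP libraries, a log2 fold change of 0.97 (SE 0.403, edgeR adjusted p = 0.263) that was called without MxCre ETP replicate 1 (1.58, 0.0233). Qars had 126, 124 and 148 against 146, 175 and 228 CPM (-0.49, edgeR adjusted p = 0.272). Farsa (-0.13, edgeR adjusted p = 0.854) and Vars (-0.19, 0.738), the genes called in IgG mice, had smaller differences of the same sign. Eprs (0.35, edgeR adjusted p = 0.363), Tars (0.27, 0.593), Mars2 (0.66, 0.396), Kars (-0.13, 0.856), Gars (0.06, 0.949) and Wars (0.13, 0.853) did not pass.

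Whether a treatment acted differently in the stages, or deletion and antibody differently within a stage, was tested as 4 interactions within the pI-pC and antibody table. No synthetase was called in any by edgeR or by DESeq2, where edgeR called 0.00746%, 0%, 0.082% and 1.23% of all genes for the deletion by stage, the antibody by stage, deletion minus antibody in ETP and deletion minus antibody in DN3. The lowest adjusted p of a synthetase was 0.878, 0.901, 0.775 and 0.192 in that order. For the genes that fell with the antibody in DN3, the antibody effect in DN3 minus that in ETP was -0.17 in Dars (95% interval -0.52 to 0.18), -0.28 in Farsb (-0.89 to 0.33), 0.13 in Iars (-0.31 to 0.56) and -0.26 in Rars (-0.78 to 0.27), with edgeR adjusted p of 0.974 or more. The drop in DN3 was thus not shown to differ from the ETP values.

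The deletion effect minus the antibody effect in DN3 cells was 0.18 in Dars (-0.14 to 0.50), 0.43 in Farsb (-0.03 to 0.88), 0.39 in Iars (0.02 to 0.76) and 0.41 in Rars (-0.03 to 0.85), with edgeR adjusted p from 0.402 to 0.724. The Iars interval leaves out 0, yet its unadjusted edgeR p was not under 0.05. The intervals take no account of the degrees of freedom of the test and are too narrow. Unadjusted p was under 0.05 in 3 synthetases in that contrast (12.5% of all genes), all more negative with the deletion: Qars (-0.51, 95% interval -0.86 to -0.16, edgeR adjusted p = 0.192), Sars (-0.42, 0.388) and Aars2 (-0.71, 0.278). In the other contrasts it was under 0.05 for Farsa in the deletion by stage (-0.69, edgeR adjusted p = 0.878; 5.52% of all genes) and for Vars in deletion minus antibody in ETP (0.57, 0.775; 6.4%), and for none in the antibody by stage (5.46%). Qars is thus the gene in which both treatments of DN3 cells stood farthest apart relative to error, without passing the adjustment.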

How the data were processed

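RNA of sorted thymocytes was measured by RNA-seq in 40 libraries. The authors deposited 3 tables of estimated counts per gene symbol, not scaled between libraries, made with 3 library kits per the labels. A share of 0.71% to 1.19% of the deposited values, by table, was not whole (tolerance 0.01), and all were rounded before testing. Per the submitters' processing notes, the tools were TopHat2 2.0.9, Bowtie2 2.1.0.0, Cuffdiff 2.1.1, Cufflinks and FastQC 0.10.0, with build mm10. Their roles, the annotation and the use of strand are not given in the sources used here. Libraries were assigned by their titles, and none was left out.

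Each comparison used the 2 groups it names, in R 4.3.3 with edgeR 4.0.16: filterByExpr (minimum count 10, minimum total 15), TMM scaling and the robust quasi-likelihood F test, with group as the only term, Benjamini-Hochberg adjustment over all genes tested and a call at adjusted p under 0.05. Log2 fold changes (prior count 0.125) are treated or deleted minus control, or DN3 minus ETP. The 4 interactions were fitted on the groups they involve, and their 95% intervals are the estimate ± 1.96 SE. This normal approximation is narrower than the quasi-likelihood test allows, so the p-values decide. CPM were computed with TMM factors over each table, and divided by the longest GENCODE M21 coding transcript (GRCm38) for levels between genes. Totals of 9456817 to 91659590 counts set the precision, and no joint test crossed tables. The scripts were tested on simulated counts. Alternatives were DESeq2 1.42.0 (Wald test), its size factors in edgeR, other filters, a spread shared by more groups, a replicate block and each library left out.

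Wars, Kars and Gars were named in every comparison, with every called synthetase and, where fewer than 6 were called, those of lowest p until 4 cytosolic and 2 mitochondrial genes were named; of the other lists, called members or otherwise the 2 of lowest p, with Myc and Atf4 as references. Gatb, 1 of 13 mitochondrial translation partners, was not found under that symbol. The members and lists were chosen with earlier results of these data known.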

Additional observations from a re-analysis of the deposited data

How the results depend on the processing

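The calls are limited by 3 or 4 libraries per group and by an unknown use of strand where genes overlap. Leaving out 1 library in turn gave 0 to 3 called synthetases for the antibody in DN3 cells, 0 to 3 for IgG DN3 against IgG ETP cells, and 0 to 1 for MxCre DN3 against MxCre ETP cells, where the 1 was Aars2 without MxCre ETP replicate 1. DESeq2 called 1 synthetase, Nars2, in tamoxifen DN3 cells against 0 by edgeR. In pI-pC ETP cells, leaving out a library turned log2 fold changes above 0 for Kars (0.06 without DeltaMxCre ETP replicate 1 and 0.22 without MxCre ETP replicate 3, over a range of -0.18 to 0.22), Wars (0.07 and 0.16, range -0.14 to 0.16) and Gars (0.20, range -0.15 to 0.20). In MxCre cells between stages it turned Gars (-0.081, -0.03 and -0.04, range -0.081 to 0.31) and Kars (0.14, range -0.26 to 0.14). The causes were not tested. For single named genes, 986 recomputed values kept direction and side of the threshold, 19 lost a call, 4 gained one and 9 reversed. Of the class medians 179 stayed within the spread and 17 moved, and of the counts over all genes 89 stayed within 1.5 times and 77 did not. Leaving out 1 library turned 7 class medians across 0, among them the mitochondrial one between the IgG stages (-0.01 without IgG DN3 replicate 1).

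With the replicate number as a block, 5 synthetases were called for the antibody in DN3 cells (Kars added, log2 fold change -0.37, edgeR adjusted p = 0.0407), 2 between the IgG stages, and 0 in the other comparisons and interactions. In no comparison did every pair of same-numbered libraries pass a correlation of 0.1 over all genes, so the numbers were not taken as pairs. The correlations were 0.0537, 0.0251 and -0.0224 for the antibody in DN3. All were above 0 in tamoxifen ETP cells (0.139, 0.0408, 0.127 and 0.162) and between the MxCre stages (0.121, 0.0296 and 0.247). Whether the numbers mark pairs in those sets was not settled. Over all genes the block changed the count of calls from 5 to 14 in pI-pC ETP cells, from 11 to 0 in tamoxifen DN3 cells and from 371 to 663 between the MxCre stages. The spread shared with further groups was not run for the tamoxifen comparisons, whose tables hold only the 2 groups compared.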

Other observations

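Within groups, the library with the smallest share of Malat1, a nuclear RNA, was also the one with the largest summed cytosolic synthetase level in 8 of 12 groups. The match held in the control groups IgG ETP, MxCre DN3 and MxCre ETP. It also held in the treated or deleted groups AntiNRR DN3, AntiNRR ETP, DeltaMxCre DN3, DeltaTamCre DN3 and DeltaTamCre ETP. It failed in IgG DN3, TamCre DN3, TamCre ETP and DeltaMxCre ETP. MxCre ETP replicate 3 had a Malat1 share of 0.0777% and a cytosolic sum of 3479 CPM, against 0.422% with 2454 CPM and 0.484% with 2720 CPM in the other libraries of its group. MxCre DN3 replicate 3 had 0.324% with 3261 CPM, against 0.711% with 2710 CPM and 0.685% with 2724 CPM. IgG ETP replicate 3 had 0.432% with 2969 CPM, against 0.727% with 2457 CPM and 0.788% with 2185 CPM. Among treated libraries, AntiNRR ETP replicate 2 had 0.5905% with 2290 CPM, against 1.029% with 1895 CPM and 0.8579% with 2030 CPM. Control groups and treated or deleted groups were thus both among those with the match. Neither the match nor its part in the synthetase values was tested.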
